A study of Mus musculus with 6 samples.

Results

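The Id proteins and the BMP signalling genes around them were described in 6 retinal RNA libraries of mice with oxygen-induced retinopathy (OIR). The 10 genes, of 32285 in the count table, were Id1, Id2, Id3 and Id4, the ligands Bmp2 and Bmp4, the receptors Bmpr1a and Bmpr2 and the inhibitory Smads Smad6 and Smad7. They were selected by name with earlier results of these libraries known, and the contrast between the groups was part of that choice, so all values of the 10 genes in this contrast are given as a description and carry no test. In the descriptive sense 2 of the 10 genes stood apart, Id1 and Id2, which were higher in every OIR-CIH library than in any OIR-Norm library, while the ligands, receptors, inhibitory Smads, Id3 and Id4 overlapped between the groups. Over all genes tested the groups were apart for 18.4%, so nothing is read from the count of 2.

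All libraries came from wild-type C57BL/6J pups that had been placed with their mothers in 75% O2 from postnatal day 8 (PN8) to PN13, a treatment that removes capillaries from the central retina and is followed by abnormal vessel growth once the pups are back in room air. From then on the 3 OIR-CIH samples came from pups under chronic intermittent hypoxia (CIH), given for 10 h a day as 266 cycles of 135 s between 20.95% and 5% O2, and the 3 OIR-Norm samples from pups with an equal gas flow at a constant O2 level. Whole retinas were collected at PN18, and bulk RNA was sequenced with a poly(A) kit that keeps strand. The sequencing had no group without OIR, so all values compare CIH with normoxia on top of OIR.

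Bone morphogenetic proteins (BMPs) are secreted ligands that bring a type I and a type II receptor kinase together at the cell surface. The type I receptor phosphorylates Smad1, Smad5 and Smad9, which enter the nucleus with Smad4 and switch on target genes, among which the Id genes are the classic direct targets, and Smad6 and Smad7, which feed back as inhibitors. Id proteins are helix-loop-helix proteins with no DNA-binding region. They pair with E proteins and so keep basic helix-loop-helix (bHLH) factors, such as the neurogenic factors of the retina, off their DNA sites. In the retina BMP4 and its receptors help to set up dorsal identity during development, and Id proteins are known from progenitor cells, Müller glia and growing vessels.

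Activated Smad1 and Smad5 are known to bind a palindromic GC-rich element, GGCGCC, at BMP target genes. RefSeq promoter windows of GRCm38.p6, reaching from 250 bases before to 50 bases after the start of the gene, were at hand for 7 of the 10 genes, namely Id2, Id3, Id4, Bmp4, Bmpr1a, Bmpr2 and Smad6. Id1, Bmp2 and Smad7 had no window. GGCGCC reads the same on both strands and was found in 4 of these 7 windows, against 11.9% of all 32851 windows in the table. The windows were not matched for GC content, so no enrichment is read from this. The 30 bases around each match are shown because they are the letters a Smad complex could read. They lie before the RefSeq start of a gene whose groups were apart (Id2) and of genes whose groups overlapped (Id4, Bmpr1a, Bmpr2). They run 5′ to 3′ on the strand of the gene, and capitals mark the element.
Id2 promoter: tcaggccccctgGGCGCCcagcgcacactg
Id4 promoter: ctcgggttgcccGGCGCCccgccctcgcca
Bmpr1a promoter: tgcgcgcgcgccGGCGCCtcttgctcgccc
Bmpr2 promoter: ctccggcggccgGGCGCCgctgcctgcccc

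The Id2 stretch lies at chr12:25096306-25096335 on the minus strand, with the element 231 bases before the RefSeq start. GENCODE M21 places it inside the Id2 gene, outside any exon. The Id4 stretch lies at chr13:48260956-48260985 on the plus strand, with the element 148 bases before the start, upstream of Id4 and within a pair of antisense genes (A330033J07Rik and Gm49291), outside their exons. The Bmpr1a stretch lies at chr14:34502727-34502756 on the minus strand, 198 bases before the start and within the gene outside any exon in GENCODE M21. The Bmpr2 stretch lies at chr1:59764162-59764191 on the plus strand, before the RefSeq start, where GENCODE M21 has an exon and an untranslated region of Bmpr2. The element was thus found before the RefSeq start of genes with different values in the contrast, and its letters were not in the windows of Id3, Bmp4 and Smad6. The 4-letter Smad box GTCT was in 88.0% of all windows on either strand and so marks no gene. The E-box CACGTG, read by the clock factors CLOCK and BMAL1 and found in 7.15% of all windows, was in the Bmp4 window alone among the 7, with its first base 188 bases before the start. The hypoxia response core GCGTG, in 32.4% of all windows, was in those of Id3 and Smad6, and the cyclic AMP response element TGACGTCA, in 1.79% of all windows, was in none of the 7. All motifs were searched on both strands, and a match describes letters only.

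The total count per library was between 26289905 and 38010151. Of the 32285 genes, 20021 had a total count of at least 10 and were tested with edgeR's quasi-likelihood test, and all 10 genes were among them. Levels are given as CPM, the counts scaled to libraries of equal size after TMM normalization (a trimmed mean of log ratios between libraries). The rod markers were at 49339 to 64980 summed CPM in the 6 libraries, as a retina would have. Lens markers reached 484 summed CPM in OIR-Norm 2 against 15.6 to 81.8 in the other libraries. Xist, from the inactive X, was at 994, 1092 and 724 CPM in OIR-CIH and at 298, 1653 and 777 CPM in OIR-Norm. The Y-linked Ddx3y was at 21.2, 39.1 and 36.0 CPM in OIR-CIH and at 61.1, 25.3 and 65.0 CPM in OIR-Norm. The libraries thus differed in these RNAs, with groups that overlapped, and the part of sex in the values of the 10 genes was not tested. The extraction notes speak of 3 eyes in each group, but a single eye would not give both Xist and Y-linked RNA. How many animals entered a library is therefore unknown, and n counts libraries. SDs are over these libraries and may in part be technical.

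Id1, the Id protein most closely tied to BMP signalling in vessels, was at 28.2, 27.4 and 25.1 CPM in OIR-CIH 1, 2 and 3 and at 19.5, 14.7 and 14.5 CPM in OIR-Norm 1, 2 and 3. The lowest OIR-CIH library was above the highest OIR-Norm library. The means were 26.9 ± 1.59 and 16.3 ± 2.83 CPM (SD, n = 3 each), a ratio of 1.65, and the fitted log2 fold change was 0.72 (SE 0.12). The values rest on 420 to 950 reads per library. In GENCODE M21 (GRCm38) Id1 lies at chr2:152736251-152737410 on the plus strand.

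Id2, which is expressed in many neurons and glia, was at 30.1, 24.8 and 28.8 CPM in OIR-CIH and at 20.9, 17.3 and 16.1 CPM in OIR-Norm, on 494 to 1089 reads. The groups again did not overlap. The means were 27.9 ± 2.77 and 18.1 ± 2.501 CPM (SD, n = 3 each), a ratio of 1.54 and a log2 fold change of 0.62 (SE 0.12). In both genes OIR-Norm 1 was the highest of its group. Id2 lies at chr12:25093799-25097140 on the minus strand.

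Id3, which is often expressed together with Id1, was at 26.6, 23.2 and 25.5 CPM in OIR-CIH and at 29.7, 27.99 and 21.0 CPM in OIR-Norm. The OIR-CIH values all lay inside the range of OIR-Norm. The log2 fold change was -0.07 (SE 0.12), with means of 25.1 ± 1.74 and 26.2 ± 4.61 CPM (SD, n = 3 each). Without OIR-Norm 1 it was 0.03, so the data give no direction for Id3. The gene lies at chr4:136143497-136145755 on the plus strand.

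Id4, the Id protein known for its part in neural and astrocyte precursors, was at 69.1, 65.3 and 81.2 CPM in OIR-CIH and at 60.1, 70.2 and 65.1 CPM in OIR-Norm. The groups overlapped, with OIR-CIH 3 as the highest library and a log2 fold change of 0.14 (SE 0.09). Exon length here means all annotated exons of a gene merged, which for Id1 is 1160 bases, its whole locus. Orders between genes therefore depend on the annotation. By mean per kilobase of exon, Id1 was the third of the Id genes in OIR-Norm and the first in OIR-CIH. In OIR-Norm the levels were 16.9 ± 1.31 CPM per kb for Id4, 14.7 ± 2.58 for Id3, 14.0 ± 2.44 for Id1 and 7.43 ± 1.03 for Id2 (SD, n = 3). In OIR-CIH they were 23.2 ± 1.37 for Id1, 18.7 ± 2.16 for Id4, 14.0 ± 0.973 for Id3 and 11.4 ± 1.14 for Id2. In OIR-Norm the intervals of 1 SD of Id4, Id3 and Id1 overlapped, whereas Id2 was below them in both groups.

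The ratio of one Id gene to another within a library does not depend on how the library was scaled. Id1 to Id3 was 1.06, 1.18 and 0.985 in OIR-CIH and 0.657, 0.526 and 0.692 in OIR-Norm. Id2 to Id3 was 1.13, 1.07 and 1.13 against 0.703, 0.619 and 0.765. Both ratios were higher in every OIR-CIH library. They restate the higher Id1 and Id2 beside an Id3 that hardly differed, free of scaling, and are no further evidence. Id1 to Id2 was 0.937, 1.10 and 0.872 in OIR-CIH and 0.935, 0.850 and 0.904 in OIR-Norm, and here the groups overlapped. Against Id4 the separation was incomplete for Id1, at 0.408, 0.419 and 0.310 in OIR-CIH and 0.325, 0.210 and 0.224 in OIR-Norm, and complete but narrow for Id2, at 0.355 or more in OIR-CIH and 0.348 or less in OIR-Norm. The 4 Id genes together were at 154, 141 and 161 CPM in OIR-CIH and at 130.2, 130.2 and 117 CPM in OIR-Norm. Their sum was therefore higher in all OIR-CIH libraries, with Id4 as the largest contributor by reads.

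**Figure D1:**
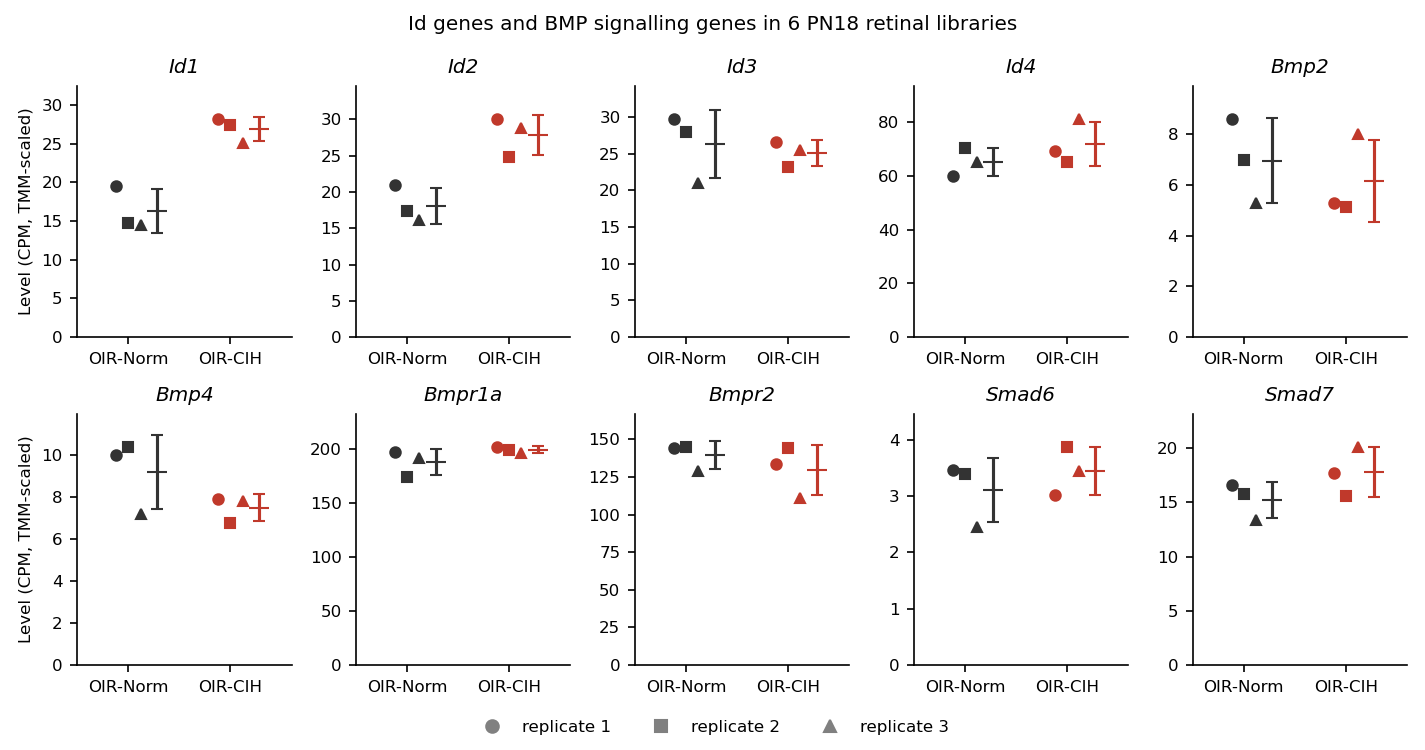
Level of the 10 genes in each library, with 1 panel per gene, the group on the x axis and CPM after TMM scaling on a y axis that starts at 0. Points are single libraries with the shape giving the replicate, and the bar beside them is the mean ± SD (n = 3). The groups are apart for Id1 and Id2 alone, where the lowest OIR-CIH values are 25.1 and 24.8 CPM and the highest OIR-Norm values 19.5 and 20.9 CPM.

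Among the ligands, Bmp2 was at 5.30, 5.13 and 8.02 CPM in OIR-CIH and at 8.60, 6.98 and 5.28 CPM in OIR-Norm. The groups overlapped over nearly their whole range, and the log2 fold change was -0.17 (SE 0.21), or 0.01 without OIR-Norm 1. Bmp4, the ligand of the dorsal retina, was at 7.93, 6.76 and 7.83 CPM in OIR-CIH and at 10.03, 10.4 and 7.19 CPM in OIR-Norm. Its log2 fold change of -0.29 (SE 0.16) was negative in every fit that left out 1 library, from -0.45 to -0.20, yet OIR-Norm 3 lay inside the OIR-CIH range. Neither ligand was higher in OIR-CIH on average.

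The type I receptor Bmpr1a was the gene with the highest level per length of the 10, at 31.4 ± 0.501 CPM per kb in OIR-CIH and 29.6 ± 1.91 in OIR-Norm (SD, n = 3). Its 6 libraries were at 203, 199.7 and 196 CPM in OIR-CIH and 198, 174 and 192 CPM in OIR-Norm, a log2 fold change of 0.09 (SE 0.08). The type II receptor Bmpr2, which pairs with it, was at 134, 144 and 111 CPM in OIR-CIH and 144, 145 and 129 CPM in OIR-Norm, a log2 fold change of -0.11 (SE 0.10). For both receptors the groups overlapped and the difference was close to its standard error.

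The inhibitory Smads, which are BMP target genes as the Id genes are, had small positive values. Smad7, which blocks receptors of the BMP and TGF-beta branches, was at 17.7, 15.6 and 20.2 CPM in OIR-CIH and at 16.6, 15.8 and 13.4 CPM in OIR-Norm, a log2 fold change of 0.23 (SE 0.12). Smad6, which acts mainly on the BMP branch, was the lowest of the 10 genes per length, with 77 to 130 reads per library. It was at 3.02, 3.88 and 3.44 CPM in OIR-CIH and at 3.47, 3.40 and 2.45 CPM in OIR-Norm, a log2 fold change of 0.15 (SE 0.19). The groups overlapped for both, and without OIR-Norm 3 the value of Smad6 was 0.01.

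Per kilobase of exon Bmpr2 was below every Id gene in OIR-CIH and level with Id2 in OIR-Norm (7.43 ± 1.03 CPM per kb), and the ligands and inhibitory Smads were lower than all of these. In OIR-CIH the order was Bmpr2 at 7.21 ± 0.932, Smad7 at 3.94 ± 0.509, Bmp4 at 3.34 ± 0.288, Bmp2 at 1.73 ± 0.456 and Smad6 at 1.08 ± 0.134 CPM per kb (SD, n = 3). In OIR-Norm Bmpr2 was at 7.76 ± 0.510, Bmp4 at 4.10 ± 0.783, Smad7 at 3.37 ± 0.374, Bmp2 at 1.96 ± 0.467 and Smad6 at 0.970 ± 0.178. Smad7 and Bmp4 changed places, but their intervals of 1 SD overlapped in both groups.

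In the fit over all genes 63 of 20021 genes (0.315%) passed an adjusted p under 0.05 and a log2 fold change beyond 0.5, 20 of them higher (0.0999%) and 43 lower in OIR-CIH. Id1 and Id2 were 2 of the 20, and the groups did not overlap for 2 of the 10 genes against 18.4% of all genes tested. Since the genes were chosen with this contrast in view, nothing is read from these counts. The median log2 fold change was 0.11 over the 10 genes and -0.0028 over all genes tested. Whether Id1 and Id2 passed, given here as a description and not as a test, depended on single libraries. Both passed without OIR-Norm 1, 1 of them passed without OIR-CIH 2 (Id2) and without OIR-CIH 3 (Id1), and neither passed without OIR-CIH 1, OIR-Norm 2 or OIR-Norm 3. The fold change itself stayed between 0.65 and 0.87 for Id1 and between 0.54 and 0.74 for Id2 in these fits.

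The genes differed in how closely replicates repeated. The biological coefficient of variation (BCV) of edgeR, the relative spread between libraries of a group beyond counting error, was 0.0701 for Bmpr1a, at percentile 6.93 of the genes tested, and 0.0847 for Id4 and 0.0872 for Bmpr2. Id1, Id2 and Id3 were at 0.111, 0.108 and 0.113, close to the median of 0.119 over all genes. Bmp2 had the widest spread at 0.181. Much of this difference goes with level. Relative to the trend that edgeR fits over genes of like level, the BCV ran from 0.883 for Bmpr1a to 1.25 for Bmp2. For Id1 that ratio was 1.03, an ordinary spread for its level.

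Within groups some of the genes had similar deviations, and whether they varied independently was not tested. As deviations of log2(CPM + 0.5) from the group mean, OIR-Norm 3 was at -0.30 for Id3, -0.34 for Bmp2, -0.32 for Bmp4, -0.28 for Smad6 and -0.18 for Smad7, the lowest library of its group for each of them. OIR-Norm 1 was at 0.27 for Id1 and 0.21 for Id2, the highest of its group. Over the 6 libraries the Pearson r of these deviations was 0.97 for Id3 with Bmp4, 0.93 for Bmp2 with Smad7, 0.83 for Id2 with Id3 and 0.72 for Id1 with Id2. Of 45 pairs, 4 had an r above 0.8 and 13 an r below 0, the lowest being Id4 with Bmpr2 at -0.72. These r are a description, since the genes of a library share its tissue and scaling, and only 6 libraries enter them.

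**Figure D2:**
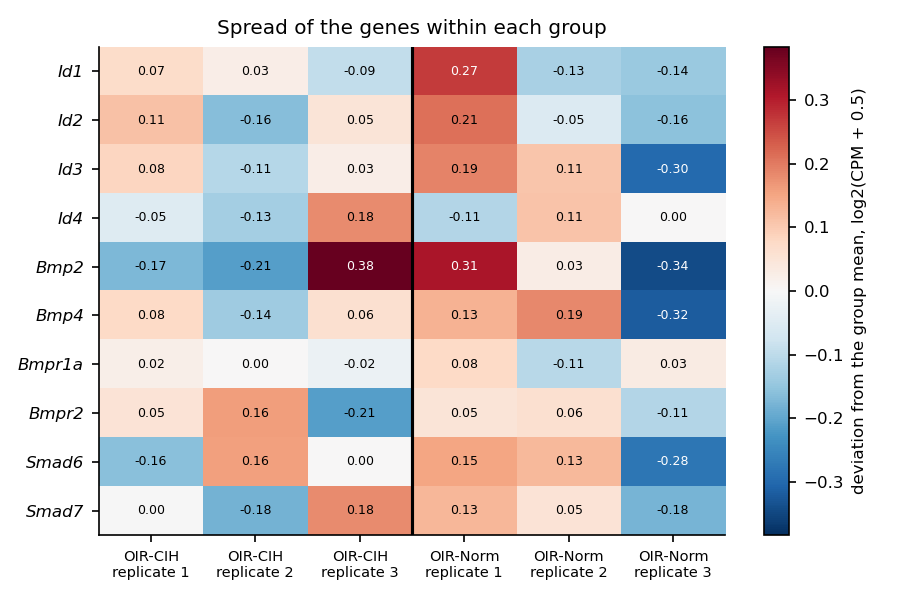
Deviation of each gene from the mean of its group in log2(CPM + 0.5), with the 10 genes as rows and the 6 libraries as columns, the color and printed number giving the deviation. OIR-Norm 3 is low for Id3, Bmp2, Bmp4 and Smad6, at -0.28 or below, and OIR-Norm 1 is high for Id1 and Id2.

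Bulk RNA cannot tell fewer cells of a type from less RNA per cell, so the markers of the cell types that can carry Id genes were read in the same libraries. RNA of the pigment epithelium, the cell layer behind the retina that can stay attached in dissection, gave a mixed picture. The summed level of its 8 markers was 495, 342 and 344 CPM in OIR-CIH and 395, 253 and 213 CPM in OIR-Norm, with none of the 8 at 0, 4 of them higher and 4 lower in OIR-CIH and 0 called. Its retinoid and transport genes (Rpe65, Ttr, Lrat and Rgr) are the same 4 that were higher. They summed to 434, 309 and 284 CPM in OIR-CIH and 278, 179 and 176 CPM in OIR-Norm, apart by a narrow gap. The planned list was the 8 genes together, so no weight is given to the separation of this subset. Best1, in neither subset, had a log2 fold change of -0.24 (SE 0.38). Its melanosome genes (Pmel, Tyr and Mlana), singled out after their values were seen, summed to 60.4, 32.9 and 58.8 CPM in OIR-CIH and 117, 72.6 and 36.6 CPM in OIR-Norm, and overlapped.

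The deviations of the 8-gene sum had an r of 0.89 with those of Id1 and of Id2 and 0.78 with those of Id3 over the 6 libraries, again as a description. Such r were not particular to this tissue, since the sum of the rod markers had 0.85 with Id1 and 0.88 with Id2. OIR-Norm 1 was above OIR-CIH 2 and 3 in the 8-gene sum (395 against 342 and 344 CPM) and in the melanosome genes (117 against 32.9 and 58.8 CPM), but below them in the retinoid and transport genes (278 against 309 and 284 CPM), in Id1 and in Id2. The part of pigment epithelium RNA in the higher Id1 and Id2 was not tested.

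**Figure D3:**
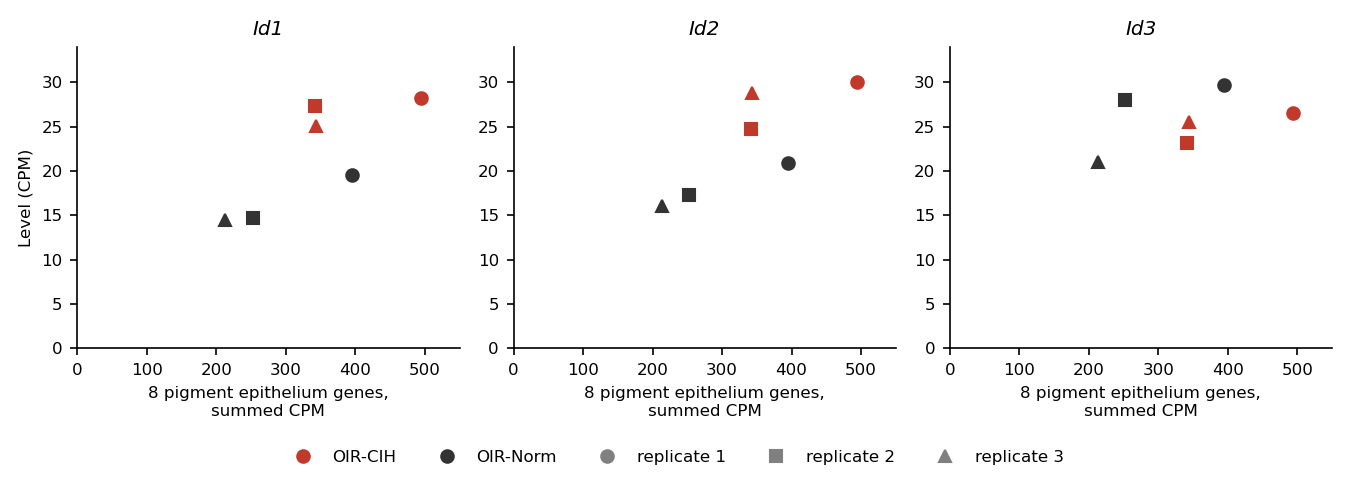
CPM of Id1, Id2 and Id3 (y axes, from 0) against the summed CPM of 8 pigment epithelium genes (x axes) in the 6 libraries, color giving the group and shape the replicate. The sum runs from 213 CPM in OIR-Norm 3 to 495 CPM in OIR-CIH 1, the groups are apart in Id1 and Id2 but overlap in the sum, and Id3 shows no separation of the groups.

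The markers of other cell types were read in the same way. Müller glia markers summed to between 3364 and 4074 CPM in OIR-CIH and between 3313 and 3632 CPM in OIR-Norm, 5 of 8 genes higher and 3 lower, with 0 called. The deviations of their sum had an r of 0.80 with Id2, 0.16 with Id1 and 0.90 with Smad7. Glul, with means of 1910 CPM in OIR-CIH and 1723 CPM in OIR-Norm, made up a large part of that sum. The groups were apart for 3 of the 8 genes, against 18.4% of all genes tested. Rlbp1 (log2 fold change 0.34, SE 0.09) and Car14 (0.40, SE 0.09) were above in OIR-CIH, and Aqp4 (-0.31, SE 0.07) was below. Endothelial markers summed to 226, 229.6 and 259 CPM in OIR-CIH and 242, 290.2 and 224 CPM in OIR-Norm, 2 of 10 genes higher and 8 lower, with 0 called. Kdr, with means of 171.5 CPM in OIR-CIH and 172.4 CPM in OIR-Norm, made up most of the endothelial sum, which therefore says little of the other endothelial markers. The Müller glia sum and the endothelial sum both overlapped between the groups. Pericyte markers also overlapped, at 76.0, 93.6 and 121 CPM against 132, 205 and 88.4 CPM, with 5 of 5 lower and 0 called. Rod markers were at 55877 to 64972 CPM in OIR-CIH and 49339 to 64980 CPM in OIR-Norm, 8 of 8 higher with 0 called, and the deviations of their sum had an r of 0.85 with Id1 and 0.88 with Id2.

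The summed markers of astrocytes and of microglia were lower in every OIR-CIH library than in any OIR-Norm library, the opposite direction to Id1 and Id2. Astrocyte markers summed to 133, 132 and 139.9 CPM in OIR-CIH and 239, 242 and 194 CPM in OIR-Norm. Of these 5 genes 4 were lower, and Gfap, the glial intermediate filament, was called lower (log2 fold change -1.15, SE 0.10, edgeR adjusted p = 0.000107). Gfap, with means of 63.8 CPM in OIR-CIH and 142 CPM in OIR-Norm, made up a large part of the sum. Pax2 (-0.53, SE 0.22) and Pdgfra (-0.46, SE 0.13) were lower on the log2 scale, and S100b (-0.11, SE 0.11) and Aldh1l1 (0.03, SE 0.10) were near 0. Microglia markers summed to 70.7, 66.2 and 79.0 CPM against 94.6, 94.8 and 82.1 CPM, 7 of 8 lower with Fcrls called (log2 fold change -0.69, SE 0.13, edgeR adjusted p = 0.0414). Within the groups, the deviations of the microglia sum had an r of 0.98 with Smad7, 0.93 with Bmp2 and 0.84 with Bmp4. No marker of these lists was at 0 in any library, and the part of any of them in the values of the 10 genes was not tested.

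The rest of the BMP pathway was not among the 10 genes and was tested in the same fit. Its lists were also written with earlier results of these libraries known, so they are not an independent set. Of 55 further genes in 6 lists, 53 reached the minimum count (Bmp8a and Bmp10 did not), 21 had a higher and 32 a lower mean fold in OIR-CIH, and 0 were called by edgeR's quasi-likelihood test with Benjamini-Hochberg adjustment over all genes. At an unadjusted p under 0.05 there were 8, against 13.2% of all genes tested, and DESeq2 called 0 with 7 at that level. The median log2 fold change was -0.07, and for 12 of the 53 the groups did not overlap, 5 above and 7 below, against 18.4% of all genes. By count and by median these genes were thus close to the background of all genes.

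The other ligands (11 tested, 5 higher, 6 lower) had no call. Bmp15 was at 5.93, 5.65 and 5.53 CPM in OIR-CIH and 6.88, 7.54 and 7.92 CPM in OIR-Norm, apart, with a log2 fold change of -0.39 (SE 0.13, edgeR adjusted p = 0.280). Gdf5 was at 0.450 CPM or less in every library, and its log2 fold change of 1.26 (SE 0.59, edgeR adjusted p = 0.387) rests on few reads. Bmp6, the ligand best known for iron regulation in the liver, had a log2 fold change of 0.35 (SE 0.26), and Bmp3, which mostly opposes the others, one of 0.14 (SE 0.09).

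The other receptors and co-receptors (9 tested, 4 higher, 5 lower) held the lowest adjusted p of the pathway. Acvr2b, a type II receptor shared by activins and BMPs, was at 21.8, 26.0 and 24.2 CPM in OIR-CIH and at 31.7, 34.5 and 32.8 CPM in OIR-Norm. All OIR-CIH values were below all OIR-Norm values, with means of 24.0 ± 2.12 and 33.0 ± 1.38 CPM (SD, n = 3 each), a log2 fold change of -0.46 (SE 0.09) and an adjusted p of 0.0610 by edgeR, which misses both thresholds. With DESeq2 its adjusted p was 0.00243 and with no filter on low counts, by edgeR, 0.0101, so that under these settings the fold threshold alone kept it from a call. The endothelial co-receptor Eng was at 8.95, 9.95 and 16.0 CPM against 16.3, 23.6 and 6.53 CPM, a log2 fold change of -0.40 (SE 0.34) that turned to 0.04 without OIR-Norm 2, the library with the most endothelial RNA. The endothelial type I receptor Acvrl1 had a log2 fold change of 0.18 (SE 0.19) and the co-receptor Rgma one of -0.13 (SE 0.14), and both overlapped.

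The Smads that carry the signal showed no call among 4 genes. Smad1 was at 35.0, 31.4 and 33.3 CPM in OIR-CIH and 31.9, 37.7 and 29.6 CPM in OIR-Norm, a log2 fold change of 0.01 (SE 0.10). The common partner Smad4 had a log2 fold change of -0.01 (SE 0.07). Smad5 was lower in every OIR-CIH library, at 70.5 to 74.1 CPM against 78.6 to 83.8 CPM, a log2 fold change of -0.15 (SE 0.07, edgeR adjusted p = 0.358), and Smad9 had one of -0.20 (SE 0.16). These are RNA levels and say nothing of the phosphorylated proteins.

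Of the 16 secreted antagonists and modulators 7 were higher, 9 were lower and 0 were called. Twsg1, which binds BMPs together with chordin, was at 68.2, 65.2 and 68.3 CPM in OIR-CIH and 80.7, 80.2 and 75.7 CPM in OIR-Norm, apart, with a log2 fold change of -0.23 (SE 0.07, edgeR adjusted p = 0.215). Bmper, another chordin partner, had a log2 fold change of 0.40 (SE 0.22, edgeR adjusted p = 0.466), also with groups apart. Fstl1 was at -0.34 (SE 0.14) and Nbl1 at -0.21 (SE 0.11) on the same scale, both overlapping. Of the 5 intracellular and membrane brakes, 0 were called, and Skil, a Smad co-repressor, was higher in every OIR-CIH library, at 80.2 to 86.2 CPM against 70.2 to 75.6 CPM, a log2 fold change of 0.18 (SE 0.07, edgeR adjusted p = 0.300). The pseudoreceptor Bambi (-0.18, SE 0.13), the ligase Smurf1 (-0.09, SE 0.08) and Ski (-0.10, SE 0.08) had log2 fold changes near 0.

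The other target genes are the closest comparison to Id1 and Id2, since the same Smads are known to activate them in other cells. Of 8 tested, 3 were higher, 5 were lower and 0 were called. Hey1 was at 22.1, 19.97 and 22.8 CPM in OIR-CIH and 17.0, 14.7 and 16.4 CPM in OIR-Norm, apart, with a log2 fold change of 0.43 (SE 0.10, edgeR adjusted p = 0.138). Its adjusted p was 0.0220 with DESeq2 and 0.0436 by edgeR with no filter on low counts, and there too it missed a call by its fold change alone. Its relative Hey2 went the other way, at 16.2, 13.6 and 15.5 CPM against 17.9, 20.6 and 18.9 CPM, also apart, with a log2 fold change of -0.34 (SE 0.11, edgeR adjusted p = 0.247). Both Hey genes are also Notch targets. Msx1 (-0.29, SE 0.24) and the endothelial Tmem100 (0.60, SE 0.47) were at 1.23 CPM or less in every library, and their groups did not overlap.

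**Figure D4:**
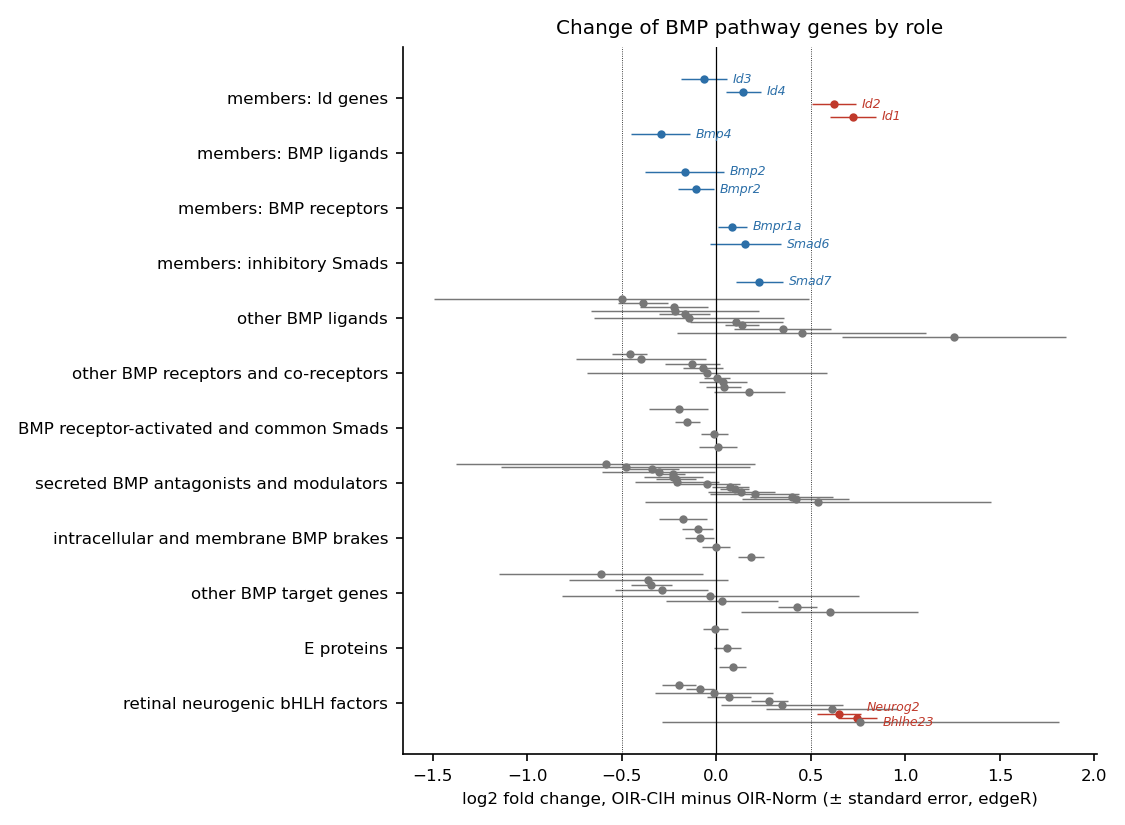
Log2 fold change (x axis, OIR-CIH minus OIR-Norm, with the edgeR standard error as bars) of the 10 genes and of the further pathway and bHLH genes grouped by role on the y axis. Red marks genes past the thresholds, blue the rest of the 10, gray all others, and dotted lines stand at 0.5 in either direction. Past the thresholds are Id1 (0.72), Id2 (0.62), Bhlhe23 (0.75) and Neurog2 (0.65), and no further BMP pathway gene. For Id1 and Id2, which were chosen with this contrast in view, the color is a description.

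Id proteins act by binding E proteins, which bind DNA together with tissue-specific bHLH factors, so these partners were read as well. The E proteins Tcf3, Tcf4 and Tcf12 had log2 fold changes of 0.09 (SE 0.07), 0.06 (SE 0.07) and -0.0049 (SE 0.07), and 0 were called by edgeR, with 0 at an unadjusted p under 0.05 and 0 called by DESeq2. Tcf4 was at 117 to 131 CPM and Tcf12 at 101 to 108 CPM in the 6 libraries, which shows how close these levels were.

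Of the 10 neurogenic bHLH factors tested (Olig2 had too few reads), 7 were higher, 3 were lower and 2 were called, both higher, against 0.0999% of all genes. The list was written with earlier results of these libraries known, so its count is not independent evidence of a direction. Bhlhe23, a bHLH repressor that rod bipolar cells need, was at 49.2, 49.5 and 53.9 CPM in OIR-CIH and at 33.7, 25.4 and 31.9 CPM in OIR-Norm. It rose with a log2 fold change of 0.75 (SE 0.10, edgeR adjusted p = 0.00541), higher in 3 of 3 OIR-CIH libraries than in any OIR-Norm library, and stayed called whichever library was left out. Neurog2, a proneural factor that drives cells toward neurons, was at 24.1, 21.5 and 21.1 CPM in OIR-CIH and 15.7, 14.7 and 12.1 CPM in OIR-Norm, and rose with a log2 fold change of 0.65 (SE 0.12, edgeR adjusted p = 0.0319). That call was lost in 5 of 6 fits that left out 1 library, with edgeR adjusted p from 0.0560 to 0.233. The call was kept without OIR-Norm 1 alone.

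The remaining factors did not pass. Bhlhe22, a close relative of Bhlhe23 in amacrine and bipolar cells, had a log2 fold change of 0.28 (SE 0.10, edgeR adjusted p = 0.284). Neurod1, needed by photoreceptors and the most abundant of the list by reads, was at 494, 438 and 419 CPM in OIR-CIH and 494, 530.2 and 523 CPM in OIR-Norm, a log2 fold change of -0.20 (SE 0.09, edgeR adjusted p = 0.373). Neurod4 was at -0.09 (SE 0.07) and the ganglion cell factor Atoh7, at 1.18 CPM or less, at 0.61 (SE 0.35) on the same scale. The list therefore held values in both directions beside the pair that passed.

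Finally, the genes whose spread within the groups was most like that of Id1 and Id2 were listed by the r of the deviations among 12059 genes with a mean of at least 5 CPM. For Id1 these were Jmy (r 0.999), Whrn (0.999), Pde8b (0.998), Ppp6r3 (0.991) and Eefsec (0.990), and 151 genes had an r above 0.9. For Id2 they were Ostm1 (0.998), Laptm4b, Irf2bp2, Tmbim6 and Agpat5 (0.997 each), and 516 genes had an r above 0.9. With 6 libraries many genes reach such values. The 5 genes most like Id1 had log2 fold changes between -0.15 and 0.16, unlike its own 0.72, so the likeness within groups did not extend to the difference between them. Among the 5 most like Id2, Irf2bp2 rose with a log2 fold change of 0.51 (SE 0.09, edgeR adjusted p = 0.0234).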

How the data were processed

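Bulk RNA sequencing covered 3 retinal samples of OIR-CIH and 3 of OIR-Norm, all at PN18. The authors aligned the reads with STAR 2.7.9a and deposited 1 table of raw whole-number counts per gene, with no normalization and no coordinates. The submitters' processing notes name GRCm38, whereas the methods name Ensembl 105, and the strand setting of the counter is not given in the sources used here. Of 32285 identifiers 32158 were matched to a symbol in GENCODE M21 (GRCm38), which also gave exon lengths and gene coordinates. Exon lengths are those of all annotated exons of a gene merged, without regard to which isoforms are expressed.

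Counts were scaled by TMM and tested with edgeR 4.0.16 (quasi-likelihood) in R 4.3.3 on the 20021 genes whose counts summed to 10 or more. A call needed a Benjamini-Hochberg adjusted p under 0.05 plus a fold change whose log2 was above 0.5 or below -0.5. With 3 libraries a group, an exact two-sided permutation test of 1 gene cannot go below 0.1. Intervals and SDs cover these libraries only. Pairs of libraries of a group differed by more than counting noise (chi-square per gene from 11.5 to 23.4). The antisense genes overlapping Id4, Bmp4 and Bmpr1a had at most 25 reads in any library.

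The 10 genes and all lists were chosen with earlier results of these data known. Of each further list the called genes and up to 4 others with the lowest p are named, and for Id1 and Id2 the 5 genes with the most similar deviations. Alternatives were DESeq2 1.42.0, median-of-ratios scaling, other filters, a replicate block, adjusted p alone and leaving out each library. Promoter windows came from RefSeq (GRCm38.p6).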

Additional observations from a re-analysis of the deposited data

How the results depend on the processing

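The count of genes called, 63, was 213 with no filter on low counts and 135 with DESeq2, each holding all 63, and 35 to 104 when single libraries were left out (fewest without OIR-CIH 1, most without OIR-Norm 3). The r of same-numbered deviations was 0.162, 0.143 and -0.238, against -0.404 to 0.224 between libraries of other numbers. With so few libraries these r cannot settle whether a shared replicate number pairs them. A replicate block gave 84 calls. The pathway count was 0 in every setting run, although Acvr2b and Hey1 passed the adjusted p with DESeq2 and with no filter. The count of called bHLH partners, 2, was 1 to 2 with single libraries left out, and that of the 10 genes past the thresholds, 2, was 0 to 2. Both were 2 under the other settings run. Named uncalled genes whose log2 fold change changed sign with single libraries left out were Id3 (-0.20 to 0.029) and Bmp2 (-0.42 to 0.011), both above 0 without OIR-Norm 1, Eng (-0.77 to 0.042, above 0 without OIR-Norm 2), Smad4 (-0.038 to 0.027, above 0 without OIR-CIH 2 or OIR-Norm 1), Smad1 (-0.065 to 0.11, below 0 without OIR-CIH 1, OIR-Norm 1 or OIR-Norm 3) and Tcf12 (-0.022 to 0.021, above 0 without OIR-CIH 2 or OIR-Norm 1). The causes were not tested. Genes with few reads, such as Gdf5, Tmem100 and Atoh7, have standard errors of 0.35 or more on the log2 scale, so changes of that size in them were not detectable at this depth.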
